A study of Mus musculus with 4 samples.

Results

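Transcription factors that mark the layers of the cerebral cortex were followed in cultures of newborn mouse prefrontal cortex (PFC) grown with or without fibroblast growth factor 2 (FGF2), a growth factor for neural progenitors and glia. The members are 9 genes, chosen by name as factors widely used to mark cortical layers, out of 55421 listed genes. The deep-layer group holds 5 of them (Tbr1, Bcl11b, Fezf2, Sox5 and Foxp2) and the upper-layer group 4 (Cux1, Cux2, Rorb and Pou3f2). PFC tissue of wild-type C57BL/6 mice at postnatal day 0 was dissociated and cultured for 10 days in neurobasal medium with B27 supplement, and FGF2 was either added at 5 ng/mL or left out. Both groups were otherwise treated alike, and each gave 2 libraries of total RNA. In the study, the mouse cultures address whether an effect of FGF2 on markers of excitatory neurons in human cultures extends to another species.

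In the developing neocortex, excitatory neurons of the deep layers are born first and those of the upper layers later, and each class is specified by transcription factors that partly repress one another. Tbr1, Fezf2, Bcl11b and Sox5 take part in this network for the deep layers, in which Fezf2 acts upstream of Bcl11b and Tbr1 represses Fezf2. Several of the factors are not restricted to these neurons: Bcl11b and Foxp2 also mark striatal projection neurons, Bcl11b is found in interneurons, Sox5 in oligodendrocyte precursors, and Rorb and Pou3f2 in astrocytes or progenitors.

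Counts on genes ranged from 9166432 to 10799886 per library, and 17144 genes passed the expression filter, among them all 9 members. The libraries of a group differed by more than the sampling noise. The sources do not state that they came from separate cultures, and the methods of the study speak of technical replicates, so the p-values measure the spread between these libraries only and may leave out the variation between cultures. Levels are given as CPM, the counts of a gene relative to its library's TMM-adjusted total, the SD is over 2 libraries, and a gene is called changed at an adjusted p-value below 0.05 in the quasi-likelihood test of edgeR, with Benjamini-Hochberg adjustment over the 17144 genes. At this threshold 40.5% of all tested genes were called, 19.9% lower and 20.7% higher with FGF2.

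Of the 9 factors, 6 were called. Tbr1, Bcl11b and Foxp2 fell to about the same degree with FGF2, by 0.95 to 1.12 on the log2 scale, and Cux2 fell by 0.36. Rorb rose by 0.47 and Pou3f2 by 0.28, whereas Fezf2, Sox5 and Cux1 did not pass the test. Thus 3 of 5 deep-layer and 1 of 4 upper-layer factors fell, beside 19.9% of all genes, and 2 upper-layer factors rose, beside 20.7%. The median log2 fold change was -0.95 for the deep-layer factors and 0.13 for the upper-layer factors, whereas that of all tested genes was -0.00082. Both FGF2 libraries lay below both libraries without FGF2 for 4 factors, which is the case for 33.4% of all tested genes, and above them for 2 factors, which is the case for 33.6%.

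**Figure D1:**
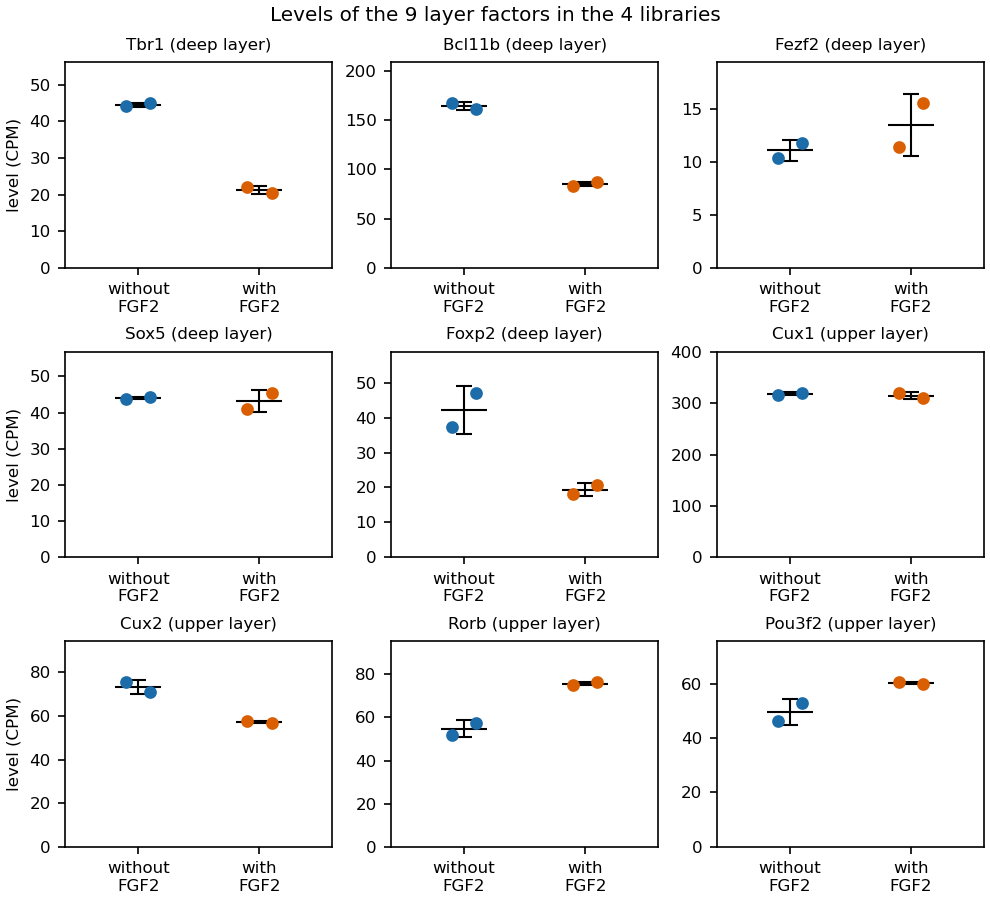
Level of each layer factor in each library, in CPM (vertical axis, a separate scale for each gene), with 1 point for each library and a bar at the mean of each group with its SD. The groups are apart for Tbr1, Bcl11b, Foxp2 and Cux2, which lie lower with FGF2, and for Rorb and Pou3f2, which lie higher, while the points of Fezf2, Sox5 and Cux1 overlap.

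Tbr1 is a T-box factor of layer 6 neurons that project to the thalamus, and it was among the factors that changed most. Its level was 21.9 and 20.5 CPM with FGF2 and 44.2 and 44.9 CPM without FGF2, from 199 and 202 counts against 464 and 486. The groups did not overlap and the libraries within a group lay close together. The mean was 21.2 ± 0.985 CPM (SD, n = 2 libraries) with FGF2 and 44.5 ± 0.515 CPM without. The log2 fold change was -1.07 (SE 0.11, 95% interval -1.29 to -0.85, edgeR adjusted p = 2.2e-20).

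Bcl11b, also known as Ctip2, encodes a zinc finger factor of layer 5 neurons with long subcortical axons. It was measured at 83.3 and 86.7 CPM in the FGF2 libraries and at 167 and 161 CPM in the others. Again both FGF2 libraries were low and both libraries without FGF2 high. Its means were 85.0 ± 2.41 and 164 ± 4.21 CPM (SD, n = 2), a ratio of 1.93 in favour of the cultures without FGF2, and its log2 fold change was -0.95 (SE 0.06, edgeR adjusted p = 1.4e-51). Counts of Tbr1 per count of Bcl11b were 0.263 and 0.237 with FGF2 and 0.264 and 0.279 without, so the ranges of this ratio nearly met while both factors fell.

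Foxp2, a forkhead factor of layer 6, gave 18.1 and 20.7 CPM with FGF2 and 37.4 and 47.1 CPM without. The libraries without FGF2 differed more from each other than for any other factor, yet the lower of them was still above both FGF2 libraries. The log2 fold change was -1.12 (SE 0.12, 95% interval -1.35 to -0.89, edgeR adjusted p = 5.1e-21), from means of 19.4 ± 1.89 and 42.3 ± 6.86 CPM (SD, n = 2). The ratio of Foxp2 to Tbr1 counts was 0.824 and 1.01 with FGF2 and 0.847 and 1.05 without, and these ranges overlapped.

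The other 2 deep-layer factors did not pass the test. Fezf2 is a zinc finger factor that specifies layer 5 neurons projecting below the cortex. Its level was 11.5 and 15.6 CPM with FGF2 and 10.4 and 11.8 CPM without, and these ranges overlapped. Its log2 fold change of 0.29 (SE 0.17, 95% interval -0.05 to 0.62) gave an edgeR adjusted p of 0.177. The value depends on the FGF2 libraries: without that of replicate 1 the log2 fold change was 0.48 (adjusted p = 0.036), and without that of replicate 2 it was 0.043 (adjusted p = 0.91).

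Sox5, a Sox family factor that controls the order in which deep-layer neurons are made, had 41.0 and 45.4 CPM with FGF2 and 43.9 and 44.2 CPM without. The libraries without FGF2 lay between those with FGF2. The log2 fold change was -0.03 (SE 0.09, edgeR adjusted p = 0.864), and its 95% interval of -0.21 to 0.16 leaves out a fall of the size seen for Tbr1, Bcl11b or Foxp2. Within the deep-layer group, the ratio of Fezf2 to Tbr1 counts was therefore 0.523 and 0.757 with FGF2 against 0.235 and 0.263 without, and that of Fezf2 to Bcl11b was 0.138 and 0.179 against 0.062 and 0.073. Both ratios were higher in each FGF2 library than in either library without FGF2.

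The upper-layer factors went in both directions. Cux1 and Cux2 are related homeodomain factors of layers 2 to 4. Cux1 was the factor with the most counts, at 319 and 310 CPM with FGF2 and 316 and 320 CPM without, and its groups overlapped. The log2 fold change was -0.02 (SE 0.04, 95% interval -0.10 to 0.07, edgeR adjusted p = 0.801). The Cux1 gene also makes, by alternative splicing, a protein of the Golgi apparatus, and the gene counts do not separate its products.

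Cux2 had 57.6 and 56.8 CPM with FGF2 and 75.4 and 71.1 CPM without, with no overlap. The fall was smaller than that of the 3 deep-layer factors, with means of 57.2 ± 0.567 and 73.3 ± 3.01 CPM (SD, n = 2) and a log2 fold change of -0.36 (SE 0.08, edgeR adjusted p = 4.3e-05). Counts of Cux2 per count of Cux1 were 0.181 and 0.183 with FGF2 and 0.238 and 0.222 without. Relative to Cux1, Cux2 was thus lower in both FGF2 libraries.

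Rorb encodes an orphan nuclear receptor that marks layer 4. It was measured at 75.2 and 76.3 CPM with FGF2 and at 51.9 and 57.5 CPM without, so that both FGF2 libraries were the higher ones. The means of 75.7 ± 0.775 and 54.7 ± 3.95 CPM (SD, n = 2) differ 1.38-fold, with a log2 fold change of 0.47 (SE 0.08, 95% interval 0.31 to 0.63, edgeR adjusted p = 3.3e-08). The ratio of Rorb to Cux2 counts was 1.30 and 1.34 with FGF2 and 0.688 and 0.808 without, so that Rorb had more counts than Cux2 in both FGF2 libraries and fewer in both others.

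Pou3f2, also called Brn2, encodes a POU domain factor used to mark layers 2 and 3. Its level was 60.5 and 59.9 CPM with FGF2 and 46.2 and 53.0 CPM without, which did not overlap. The log2 fold change was 0.28 (SE 0.09, edgeR adjusted p = 0.0040), the smallest of the 6 that were called. It rests on the test and on 1 library: DESeq2 gave an adjusted p of 0.077, and without the replicate 1 library of the cultures lacking FGF2 the log2 fold change was 0.18 (edgeR adjusted p = 0.22).

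**Figure D2:**
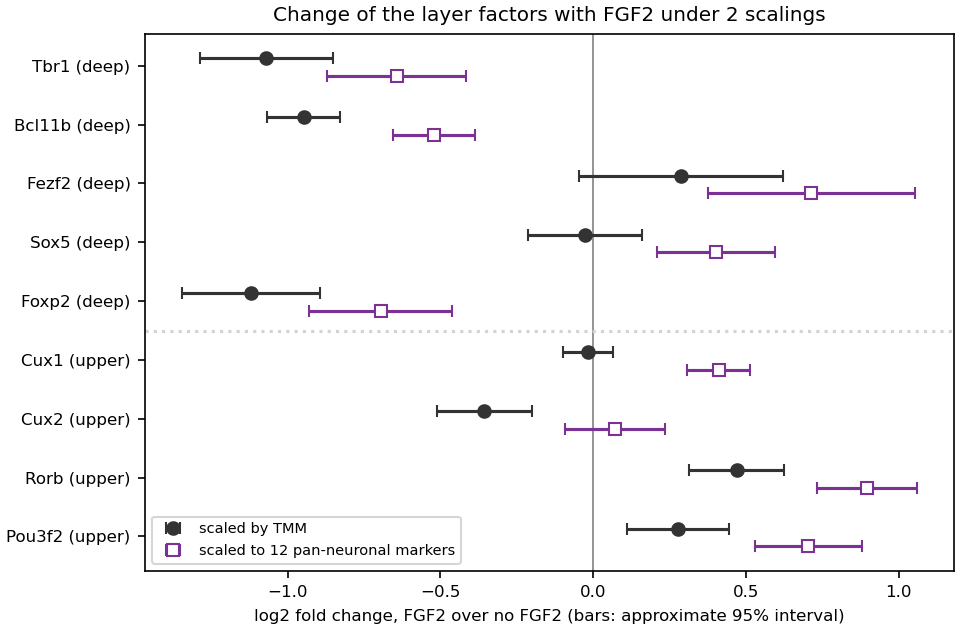
Log2 fold change of each layer factor, FGF2 minus no FGF2 (horizontal axis), with bars for the approximate 95% interval computed from the edgeR fit, under TMM scaling and under scaling to the pan-neuronal markers. Under TMM, Tbr1, Bcl11b and Foxp2 lie between -1.12 and -0.95 and the other factors between -0.36 and 0.47, and the scaling to pan-neuronal markers moves every factor to the right by about the same step.

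The libraries are bulk RNA, in which fewer cells of a type and less RNA per cell cannot be told apart. Markers of neurons as a whole were also lower with FGF2. Of 12 pan-neuronal markers 10 fell, 1 rose and 1 was not called, with a median log2 fold change of -0.43 and a range from -1.10 for Tubb3, a neuronal tubulin, to 0.38 for Nefl, a neurofilament subunit. Their summed level was 3301 to 3347 CPM with FGF2 and 4532 to 4554 CPM without. Rbfox3, which encodes the neuronal nuclear protein NeuN, fell by 0.90. The falls of Tbr1, Bcl11b and Foxp2 were thus close in size to those of Tubb3 and Rbfox3 and larger than the median of the list.

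Lists of other cells moved as well. Of 7 excitatory neuron markers 4 fell, 0 rose and 3 were not called (median log2 fold change -0.45, summed level 376 to 398 CPM with FGF2 against 498 to 511 CPM). Camk2a, at 273 to 290 CPM with FGF2 and 375 to 392 CPM without, made up most of that sum. Of 12 interneuron markers 11 fell and 0 rose (median -0.66, 917 to 918 against 1507 to 1542 CPM), and of 8 striatal projection neuron markers 6 fell and 1 rose (median -1.01, 97.6 to 116 against 126 to 131 CPM). The riser, Rgs9, made up most of the striatal sum with FGF2 (56.4 to 64.5 against 37.7 to 37.8 CPM), so that sum understates the fall of the other markers. The striatal list stands beside Bcl11b and Foxp2, which such neurons also express, and the interneuron list beside Bcl11b. On the glial side, which stands beside Rorb, Pou3f2 and Sox5, 8 of 10 astrocyte markers rose and 1 fell (median 0.41, 12628 to 12753 against 7742 to 7793 CPM). All 9 tested markers of the oligodendrocyte lineage, of 10 listed, rose (median 2.05, 1864 to 1873 against 560 to 569 CPM). The progenitor and radial glia list, which also stands beside Rorb and Pou3f2, went both ways (4 of 8 rose and 2 fell, median -0.02). The part of these cell types in the changes of the layer factors was not tested.

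When the libraries were scaled to the geometric mean of the 12 pan-neuronal markers in place of TMM, the median of all tested genes shifted to 0.43, with 4.04% of genes called lower and 57.4% called higher. Tbr1, Bcl11b and Foxp2 were still called lower, with log2 fold changes of -0.64 (SE 0.12), -0.52 (SE 0.07) and -0.70 (SE 0.12). The fall of Cux2 was gone (0.07, SE 0.08, edgeR adjusted p = 0.470). Rorb (0.90) and Pou3f2 (0.70) rose further, and Fezf2 (0.71, adjusted p = 9.5e-05), Sox5 (0.40, adjusted p = 1.3e-04) and Cux1 (0.41, adjusted p = 2.6e-14) were called higher. The rises of Sox5 and Cux1 were thus about the size of the shift of the median gene, and those of Rorb, Pou3f2 and Fezf2 were larger. These adjusted p-values compare with 0 and not with that shift. Under TMM scaling, where the median gene does not shift, Fezf2 did not pass the test and its libraries overlapped.

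The same comparison is given for single libraries as the log2 CPM of a factor relative to the mean log2 CPM of the 12 pan-neuronal markers. It uses the same libraries and markers as the scaling above, so it is not a separate test. Tbr1 stood at -2.52 and -2.60 with FGF2 and at -1.96 and -1.89 without, and Bcl11b at -0.60 and -0.53 against -0.04 and -0.05, so that both were low in each FGF2 library. Foxp2 stood at -2.80 and -2.59 with FGF2 and at -2.20 and -1.82 without.

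Fezf2 stood at -3.45 and -3.00 with FGF2 against -4.04 and -3.81 without, Sox5 at -1.63 and -1.46 against -1.97 and -1.91, and Cux1 at 1.33 and 1.31 against 0.88 and 0.94. Cux2 had the smallest step, from -1.19 and -1.23 without FGF2 to -1.14 and -1.14 with it. Rorb stood at -0.75 and -0.71 against -1.73 and -1.53, and Pou3f2 at -1.07 and -1.06 against -1.90 and -1.65. Relative to the neuronal markers, therefore, 3 deep-layer factors were lower and the other 6 factors higher in both FGF2 libraries than in both others. The share of all genes that separate in this way was not computed under this scaling. There the median gene was at 0.43, with 57.4% of all tested genes called higher and 4.04% lower, so a higher value is common. Of the 6 factors, Cux2 was not called under this scaling.

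The deep-layer group was summarised in each library as the mean log2 CPM of its 5 factors minus that of the 4 upper-layer factors. Its absolute value depends on gene lengths, which cancel in the comparison between groups. The value was -1.80 and -1.63 with FGF2 and -1.06 and -1.03 without. Both FGF2 libraries were thus lower, by 0.67 on average, against an SD of 0.115 with FGF2 and 0.021 without. How it divides between the sides depends on the scaling. Under TMM the deep-layer mean was 4.86 ± 0.105 against 5.44 ± 0.071 log2 CPM (SD, n = 2), and the upper-layer mean 6.57 ± 0.010 against 6.48 ± 0.050, so that the deep side was lower by 0.58 and the upper side higher by 0.096. Relative to the pan-neuronal markers the deep-layer mean differed by -0.15 and the upper-layer mean by 0.52. No p-value is given for this score, because the genes were chosen with results of these data known.

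The score averages factors that moved differently. Leaving out 1 factor at a time left the difference between -0.88, without Fezf2, and -0.54, without Foxp2, and scaling to the pan-neuronal markers cannot change it, since both sides shift together. In sums of CPM, the deep-layer factors added up to 176 and 189 CPM with FGF2 against 303 and 309 CPM without, and the upper-layer factors to 513 and 503 against 490 and 502 CPM, where Cux1 alone makes up most of the sum.

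Per kilobase of exonic sequence, merged over all annotated transcripts, the levels of different genes can be set in order. Without FGF2, Bcl11b was highest at 20.2 ± 0.519 CPM per kilobase (SD, n = 2), ahead of Cux1 at 15.9 ± 0.143 and Pou3f2 at 8.88 ± 0.868. Tbr1 (8.12), Cux2 (7.27), Rorb (4.94), Fezf2 (3.64) and Sox5 (3.06) came next, and Foxp2 was lowest at 2.59 ± 0.420. The library values of neighbours in this order did not overlap.

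With FGF2 the order was Cux1 (15.7), Pou3f2 (10.8), Bcl11b (10.5), Rorb (6.84), Cux2 (5.68), Fezf2 (4.43), Tbr1 (3.87), Sox5 (3.01) and Foxp2 (1.19), all in CPM per kilobase. Fezf2 and Tbr1 were the neighbours whose library values overlapped. Bcl11b thus stood in place 1 without and place 3 with FGF2, Tbr1 in place 4 and place 7, and Rorb passed Cux2. An exonic length merged over all transcripts understates the level of genes with long or many isoforms, such as Cux1, Foxp2 and Sox5, so the order holds for this length only.

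**Figure D3:**
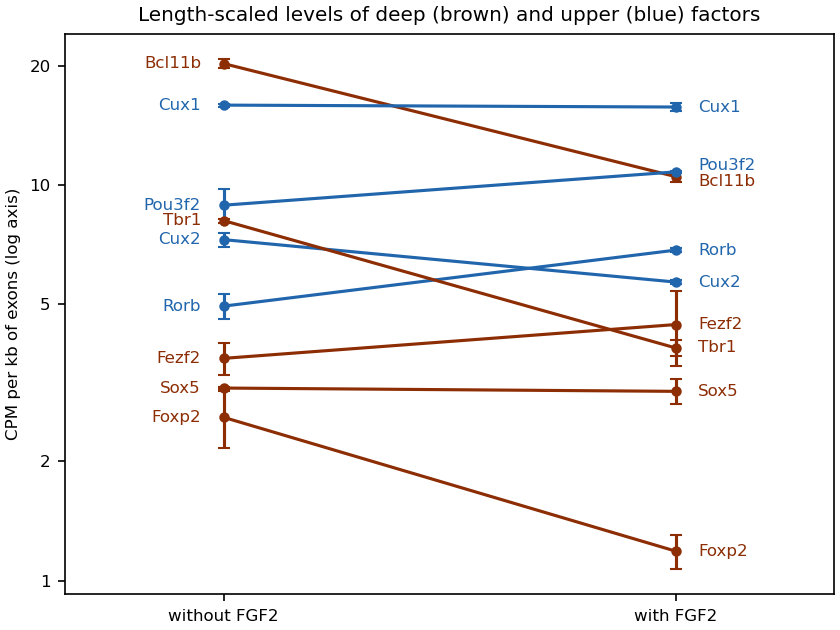
Level of the layer factors per exonic kilobase (CPM per kilobase, log axis), with points at the group means, bars for the SD over 2 libraries and a line joining the means of each gene, brown for deep-layer and blue for upper-layer factors. Without FGF2 the order starts with Bcl11b at 20.2 and ends with Foxp2 at 2.59, and with FGF2 it starts with Cux1 at 15.7 and ends with Foxp2 at 1.19.

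The closest family relatives of the factors moved in both directions. Of 13 listed relatives 11 were tested, of which 3 rose, 1 fell and 7 were not called, with a median log2 fold change of 0.05. Beside this, 20.7% of all tested genes rose and 19.9% fell. Fezf1 had 0 counts in every library, which allows up to 0.278 to 0.327 CPM (3 counts, counting error only), and Tbx21 was below the filter. Bcl11a, the relative of Bcl11b, was measured at 171 and 173 CPM with FGF2 and 239 and 237 CPM without, and its fall of 0.47 (SE 0.05, edgeR adjusted p = 2.6e-20) was smaller than the fall of Bcl11b.

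Rora, a nuclear receptor related to Rorb, had 100 and 89.7 CPM with FGF2 and 51.5 and 53.4 CPM without (log2 fold change 0.85, SE 0.08, edgeR adjusted p = 2.4e-27). Both FGF2 libraries were thus higher, as they were for Rorb, whose rise was 0.47.

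Sox6, a relative of Sox5 that is also found in interneurons and in oligodendrocyte precursors, went from 172 and 191 CPM without FGF2 to 344 and 350 CPM with it (log2 fold change 0.94, SE 0.05, edgeR adjusted p = 1.7e-91). Sox5 had no such rise under TMM scaling. Sox13 (0.05), Foxp1 (-0.01), Foxp4 (-0.03), Eomes (0.62), Pou3f1 (-0.61), Pou3f3 (0.10) and Pou3f4 (-0.08) did not pass the test. Under TMM scaling, Foxp2 and Pou3f2 were therefore called and none of their tested relatives was. Pou3f3 was, however, called higher with GC and length offsets (0.15, edgeR adjusted p = 0.013). Under the pan-neuronal scaling 8 of the 11 relatives were called higher, beside 57.4% of all tested genes. The differences between relatives were not tested.

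Other genes used to mark the layers did not follow the deep and upper split of the 9 factors. Of 26 such genes 23 were tested, and 5 rose, 11 fell and 7 were not called, beside 20.7% and 19.9% of all genes. Foxp1, Pou3f1 and Pou3f3 are counted both here and among the relatives, so the lists are not independent. Among 11 deep-layer markers 4 rose and 4 fell (median log2 fold change -0.01), and among 12 upper-layer markers 1 rose and 7 fell (median -0.26). Cplx3, Pcp4 and Rbp4, deep-layer and subplate markers, were below the filter.

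The largest rise was that of Ccn2, a secreted matrix protein used to mark the subplate and layer 6b and also made by many other cell types. Its level was 125 and 113 CPM with FGF2 and 19.5 and 18.7 CPM without (log2 fold change 2.64, SE 0.09, edgeR adjusted p = 3.6e-189). Crym, a thyroid hormone binding protein of layers 5 and 6, gave 12.7 and 17.4 against 9.14 and 6.65 CPM (0.94, SE 0.18), and Tle4, a corepressor of layer 6 neurons, 108 and 108 against 71.2 and 82.5 CPM (0.49, SE 0.07). All 3 lay higher in both FGF2 libraries.

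Other genes listed here as deep-layer markers fell about as far as Tbr1 and Foxp2, and these layer labels were not tested. Bhlhe22, a helix-loop-helix factor, had 17.9 and 15.3 CPM with FGF2 and 35.9 and 34.5 CPM without (log2 fold change -1.09, SE 0.12, edgeR adjusted p = 2.4e-17). Ntsr1, a neurotensin receptor of layer 6 neurons that project to the thalamus, had 19.1 and 19.2 against 33.7 and 38.6 CPM (-0.92, SE 0.12). Of the upper-layer markers, Calb1, a calcium-binding protein also found in interneurons, fell the most, with 10.7 and 11.5 against 19.0 and 23.5 CPM (-0.94, SE 0.15). Layer 6 markers were thus found among both the risers (Tle4) and the fallers (Tbr1, Foxp2, Ntsr1).

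In these other markers the deep minus upper value was -0.36 ± 0.038 with FGF2 and -0.82 ± 0.024 without (log2, SD, n = 2 libraries), a difference of 0.46, which is the opposite direction to the -0.67 of the 9 factors. Without Ccn2, a choice made after its value was seen, the difference was 0.21. With the 9 factors and the other markers joined, it was 0.14. A lower deep-layer mean relative to the upper-layer mean was therefore measured for the 9 factors and not for the wider set of layer markers.

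**Figure D4:**
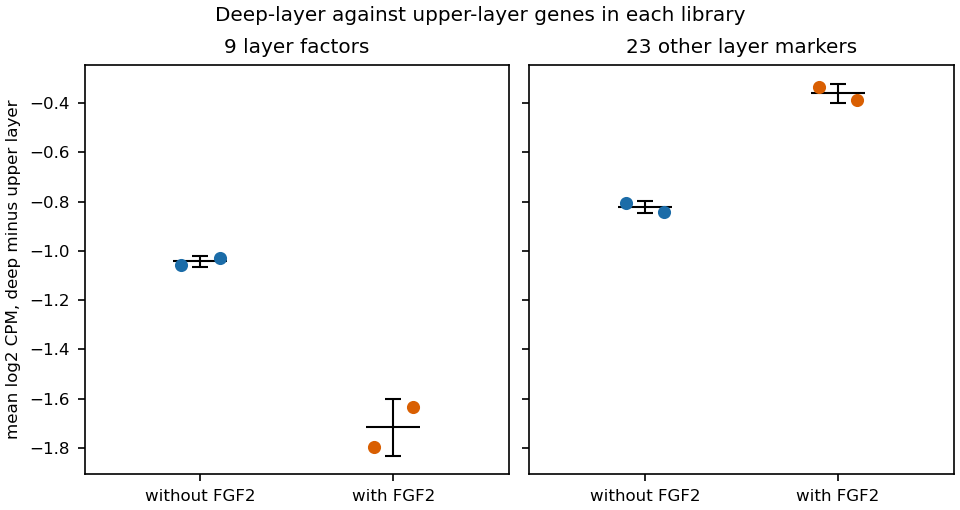
Mean log2 CPM of deep-layer genes minus that of upper-layer genes (vertical axis) for the 9 factors and for 23 other layer markers, with 1 point for each library and a bar at the mean of each group with its SD. For the 9 factors both FGF2 libraries are lower (-1.80 and -1.63 against -1.06 and -1.03), while for the other markers both are higher (means -0.36 and -0.82).

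**Figure D5:**
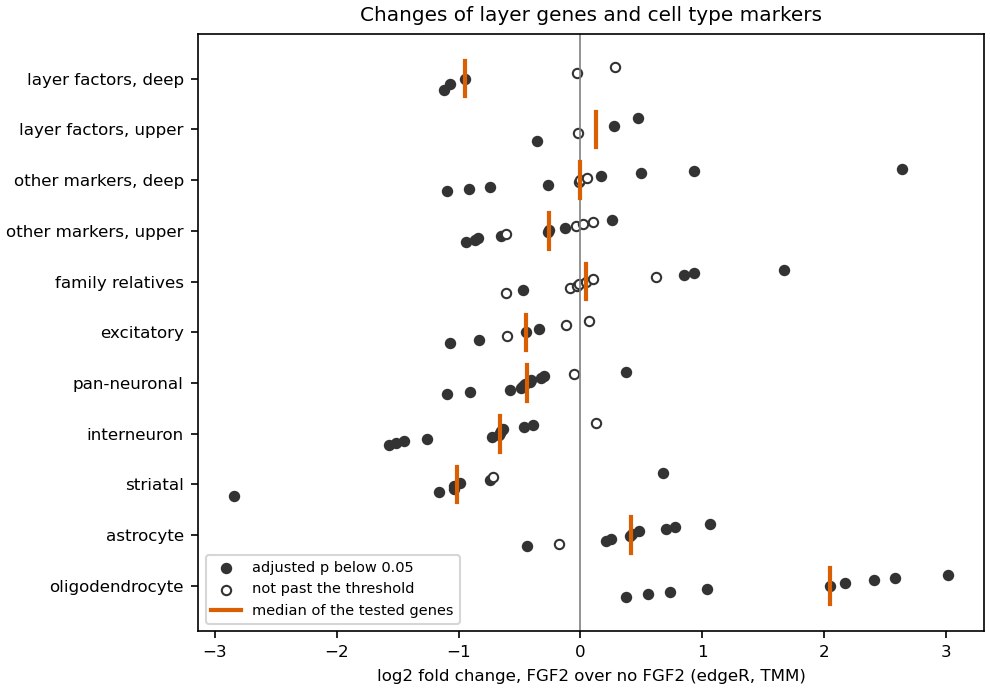
Log2 fold changes, FGF2 minus no FGF2, of the tested genes of each list (1 point for each gene, filled where the edgeR adjusted p is below 0.05, and a line at the list's median). The deep-layer factors have a median of -0.95 and the upper-layer factors of 0.13, the other layer markers spread to both sides, neuronal lists lie mostly below 0, and the oligodendrocyte lineage list lies above 0 with a median of 2.05.

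By the GENCODE annotation of mm10, Tbr1 lies on chr2:61802930-61814114, Bcl11b on chr12:107910403-108003602, Fezf2 on chr14:12342094-12348189, and Sox5 and Foxp2 on chr6:143828425-144781977 and chr6:14901349-15441977. Cux1 lies on chr5:136248135-136567490, Cux2 on chr5:121856366-122050102, Rorb on chr19:18930605-19111196 and Pou3f2 on chr4:22482780-22488366. Tbr1 and Foxp2 are on the plus strand and the others on the minus strand. All are protein-coding genes, and Pou3f2 has 1 exon. Annotated genes on the opposite strand overlap exons of Sox5 (1330 bases, Sox5os1) and Cux1 (394 bases, Gm16599), and both had 0 counts in every library. The strand setting of the counting is not given. If strand was ignored, reads in the shared bases may be missing from the counts of Sox5 and Cux1. Short stretches of Pou3f2, of 102 to 114 bases, are at least 95.1% identical to 9 other genes, so reads there may be missing from its count after the authors' mapping quality filter.

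For the upper-layer factors that rose, the 250 bases before the annotated RefSeq starts (GRCm38.p6, minus strand, outside annotated exons) show what kind of promoter stands before each. Rorb has 2 such starts, an outer one and one inside an intron, which the gene counts do not separate. Capitals mark the motif CCAAT, the GC box GGGCGG and the E-box CANNTG on either strand:
Rorb, outer start, chr19:19111197-19111446: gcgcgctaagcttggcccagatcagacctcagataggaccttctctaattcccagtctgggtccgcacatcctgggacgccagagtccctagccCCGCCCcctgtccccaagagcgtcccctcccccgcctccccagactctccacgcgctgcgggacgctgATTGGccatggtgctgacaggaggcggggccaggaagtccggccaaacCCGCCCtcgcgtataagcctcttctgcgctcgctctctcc
Rorb, inner start, chr19:19001118-19001367: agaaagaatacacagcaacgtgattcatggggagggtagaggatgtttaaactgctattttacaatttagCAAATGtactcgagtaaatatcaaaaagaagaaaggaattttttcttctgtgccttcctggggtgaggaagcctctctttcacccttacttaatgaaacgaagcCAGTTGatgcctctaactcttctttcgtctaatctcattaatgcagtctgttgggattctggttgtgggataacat
Pou3f2, chr4:22488367-22488616: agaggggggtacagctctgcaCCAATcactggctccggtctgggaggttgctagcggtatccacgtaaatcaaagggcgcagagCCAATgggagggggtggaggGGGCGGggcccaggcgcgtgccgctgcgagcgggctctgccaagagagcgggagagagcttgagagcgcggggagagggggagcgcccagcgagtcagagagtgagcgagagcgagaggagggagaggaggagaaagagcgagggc

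The outer Rorb window and the Pou3f2 window are rich in GC (66.0% and 66.8%) with 18 CG dinucleotides each, whereas the inner Rorb window has 39.2% GC and 4. The median over 32536 windows of the same length was 52.4% GC and 6 CG dinucleotides. The outer Rorb window holds 1 CCAAT and 2 GGGCGG matches, the Pou3f2 window 2 and 1, and the inner Rorb window 2 CANNTG matches and neither of the others. CCAAT occurs in 33.8%, GGGCGG in 33.0% and CANNTG in 66.2% of all windows, and no matches of different motifs overlapped. TATAAA (12.3% of windows), the T-box core GGTGTGA (3.33%) and the POU octamer ATGCAAAT (1.62%) were also searched on both strands and are not in these 3 windows. Of the 9 factors, 8 have a window in the table, and Foxp2 has none.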

How the data were processed

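Per the labels and the methods of the study, total RNA was sequenced as paired-end reads, which the authors mapped to mm10 with HISAT2 2.1.0, filtered with Samtools at a mapping quality of at least 20 and counted per gene with HTSeq 0.11.2. The deposited values are raw counts. The annotation release and the strand setting are not given in the sources used here. Tallies that name no gene (44.9% to 47.3% of each library) were left out. Of 55421 gene identifiers, 55240 were matched to GENCODE M21 for names, positions, GC content and exonic length.

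Counts were tested with edgeR 4.0.16 (R 4.3.3; TMM, expression filter by group, robust quasi-likelihood, Benjamini-Hochberg over 17144 genes), with all 4 libraries and the treatment group as the term. The TMM factors were 0.992 to 1.01. CPM is after TMM, and log2 CPM uses a prior count of 1. Intervals are 95%. The fits were also tested on simulated data. Chi-square per degree of freedom between replicates was 2.28 with FGF2 and 1.76 without, so libraries were kept apart.

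The 9 factors and all lists (other layer markers, relatives, and 10 cell type lists) were chosen with earlier results of these data known. Every factor is named. Of the other layer markers and the relatives, the genes named are the called ones that went up most and down most (at most 3 each way) and, of the relatives, the uncalled ones with their value; untested genes are named only. A relative that this rule takes is not reported here. Single genes of the cell type lists are named only where neurons express the factors, where a gene had no counts in any library, where it makes up most of a summed level, or where lists share a gene. Alternatives were other filters and scalings, DESeq2 1.42.0, limma-voom (limma 3.58.1), the replicate number as a block, lowess offsets for GC content and length (span 0.3), each library left out, and, for the score, other prior counts and each factor left out. Near-identical transcripts were searched with BLAST 2.17.0 (at least 95% identity over 100 bases). Promoter windows come from RefSeq.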

Additional observations from a re-analysis of the deposited data

How the results depend on the processing

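Of all genes, 6949 were called, 10542 with scaling to the pan-neuronal markers, 4456 with DESeq2 and 5213 to 6199 with 1 library left out, where a lone library was assumed to vary like the other group. Of the 9 factors 6 were called, 8 under the pan-neuronal scaling, 5 with DESeq2 and 5 to 7 with a library left out; of the relatives 4, and 8 under the pan-neuronal scaling. The deep minus upper difference of -0.67 was -0.55 without Rorb, -0.55 without Tbr1, -0.58 without Bcl11b, -0.88 without Fezf2, -0.81 without Sox5, -0.54 without Foxp2 and -0.82 without Cux2, and -0.75 to -0.59 with a library left out.

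Under the pan-neuronal scaling the log2 fold change turned positive for Sox5 (0.40), Cux1 (0.41), Cux2 (0.072), Foxp1 (0.42), Foxp4 (0.40) and Pou3f4 (0.34), by construction of the scaling. With GC and length offsets, without and with the block, Cux1 was at 0.022 and 0.022 and Foxp4 at 0.17 and 0.17, and the cause was not tested. With a library left out, ranges that cross 0 were -0.11 to 0.041 for Sox5, -0.042 to 0.0024 for Cux1, -0.019 to 1.81 for Eomes, -0.020 to 0.11 for Sox13, -0.055 to 0.026 for Foxp1, -0.090 to 0.027 for Foxp4 and -0.18 to 0.015 for Pou3f4. None of these was called with all libraries but Cux2.

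Libraries with the same replicate number showed no shared deviation (correlation of deviations 0.0040, with only 2 pairs). This cannot tell whether they were prepared as pairs. With the replicate number as a block, 6814 genes, 6 factors, 15 of the other layer markers and 4 relatives were called, and with GC and length offsets added 6812, 6, 16 and 5 (the added relative being Pou3f3); the difference was -0.67 in both.

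A 3-count floor of 0.278 to 0.327 CPM lay below every factor, and Fezf2, with 104 to 153 counts, was the least precisely measured.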

Other observations

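Of 8 progenitor and radial glia markers 4 rose with FGF2, 2 fell and 2 were not called, with a median log2 fold change of -0.02. Their summed level was 2145 to 2148 CPM with FGF2 against 1293 to 1348 CPM without. Vim, at 1570 to 1580 CPM with FGF2 and 664 to 683 CPM without, made up most of that sum. The higher sum therefore mainly follows Vim and does not describe the list as a whole. Of 7 listed microglia markers 3 were tested and 2 rose, with a summed level over all 7 of 11.9 to 14.8 CPM against 5.81 to 6.10 CPM. Of 7 endothelial and mural markers 6 were tested, 4 rose and 1 fell (109 to 112 against 68.6 to 71.0 CPM), and Cldn5, a tight junction gene of endothelial cells, had 0 counts in every library. Of 5 Cajal-Retzius cell markers 3 were tested and 1 fell (231 to 240 against 368 CPM). Reln, at 221 to 227 CPM with FGF2 and 352 to 355 CPM without, made up most of that sum. It is shared by the Cajal-Retzius and interneuron lists and Cspg4 by the oligodendrocyte and mural lists.

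Among ratios within a library, which no scaling changes, that of Rorb to Tbr1 counts was 3.43 and 3.71 with FGF2 and 1.17 and 1.28 without, and that of Pou3f2 to Cux2 counts was 1.05 and 1.05 with FGF2 and 0.612 and 0.745 without.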
